A study of Mus musculus with 5 samples.

Results

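The visual cycle is the route by which the eye rebuilds light-sensitive retinoid after light has isomerised it. Most of it takes place in the retinal pigment epithelium, the pigmented cell sheet behind the photoreceptors, where retinol is taken up, esterified, isomerised and oxidised before it returns to the rods and cones. Pigmented epithelium continues forward as the outer layer of the ciliary body and the back of the iris, both of which border the iridocorneal angle, and several of the genes are also known from Müller glia, ciliary epithelium and mesenchyme. Described here are 9 genes of this group, taken by symbol from the 56941 gene identifiers of the deposited count table: Lrat, Rpe65, Rdh5 and Rgr, which act on the retinoid, Rlbp1, which binds it, Rdh10, a retinol dehydrogenase, Stra6 and Ttr, which serve the uptake and transport of retinol, and Best1, an anion channel of pigment epithelium. All 9 were found and all 9 passed the minimum of 10 counts in at least 1 pool.

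RNA was sequenced from the iridocorneal angle, the drainage ring between iris and cornea, of 12-month-old DBA/2J mice (3 pools) and DBA/2J-Gpnmb+/SjJ mice (2 pools), males and females, untreated. DBA/2J mice carry a nonsense allele of Gpnmb together with the b allele of Tyrp1 and develop pigmentary glaucoma. The Gpnmb+ mice have a functional Gpnmb allele on the same background and keep the Tyrp1 b allele. Each pool is described as 3 mice, although the names of the Gpnmb+ libraries list 2 animals each. The iris and ciliary body were cut away during dissection, and remnants of both stayed attached. Total counts ran from 43900661 to 49837758 per pool, and Gpnmb had 1946 to 2234 counts in DBA/2J, against 110568 and 129659 in Gpnmb+. Counts of the Y-linked gene Ddx3y were 1567 to 4168 in DBA/2J, against 0 and 4 in Gpnmb+, and those of Xist, which is expressed from an inactive X chromosome, 0 to 2417 against 7843 and 9152. The labels give male and female mice for all pools. An Xist count of 0 beside 4168 of Ddx3y goes against this for DBA/2J pool 2. The near absence of Ddx3y goes against it for both Gpnmb+ pools. Sex and genotype therefore cannot be told apart here.

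One pool stood apart from the others. Summed over 16 rod and 10 cone genes, photoreceptor RNA made up 792, 1109 and 760 CPM (counts scaled to a common library size, with TMM, edgeR's correction for library composition) in DBA/2J pools 1 to 3, 474 CPM in Gpnmb+ pool 1 and 2493 CPM in Gpnmb+ pool 2. Gpnmb+ pool 2 thus held 5.26 times the photoreceptor RNA of Gpnmb+ pool 1, and these 2 pools were the highest and the lowest of the 5. The retina is not part of the angle. Since the 2 pools belong to one genotype, the genotype difference of each of the 9 genes is given below with and without Gpnmb+ pool 2.

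Lrat, Ttr, Rgr, Stra6 and Rdh5 separated the genotypes, with all DBA/2J pools below the lower of the Gpnmb+ pools. The fitted levels in Gpnmb+ were 3.28, 2.63, 3.10, 1.76 and 1.63 times those in DBA/2J. Rpe65 was 2.87 times higher in Gpnmb+ by the fit, but its DBA/2J and Gpnmb+ pools overlapped. The pools of Rlbp1, Rdh10 and Best1 also overlapped, and the intervals of their differences included 0, with that of Best1 reaching 1.13 on the log2 scale. By edgeR's quasi-likelihood test across 19713 genes, 0 of the 9 passed an adjusted p-value of at most 0.05 with a fold change of at least 1.5, a threshold that 0.796% of all tested genes passed. At an unadjusted p-value 6 of the 9 passed, all lower in DBA/2J, where 4.48% of all tested genes passed in that direction and 8.67% in either. DESeq2's Wald test with adjusted p-values called 4 of them (Lrat, Ttr, Stra6 and Rdh5), where it called 5.21% of all genes with an adjusted p-value. With ashr-moderated fold changes 3 of the 9 and 4.12% of those genes were called, and by limma-voom 0 of the 9 and 0.964% of all tested genes. A separation of the pools with DBA/2J below was found for 5 of the 9 genes and for 17.2% of all tested genes, and one with DBA/2J above for 0 of the 9 and for 17.3% of all tested genes. The median log2 fold change of the 9 genes was -0.82, against -0.02 over all tested genes. Without Gpnmb+ pool 2 it was -0.39, with 2 called genes left in the whole table. In bulk tissue, fewer cells of a type and less RNA per cell cannot be told apart.

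**Figure D1:**
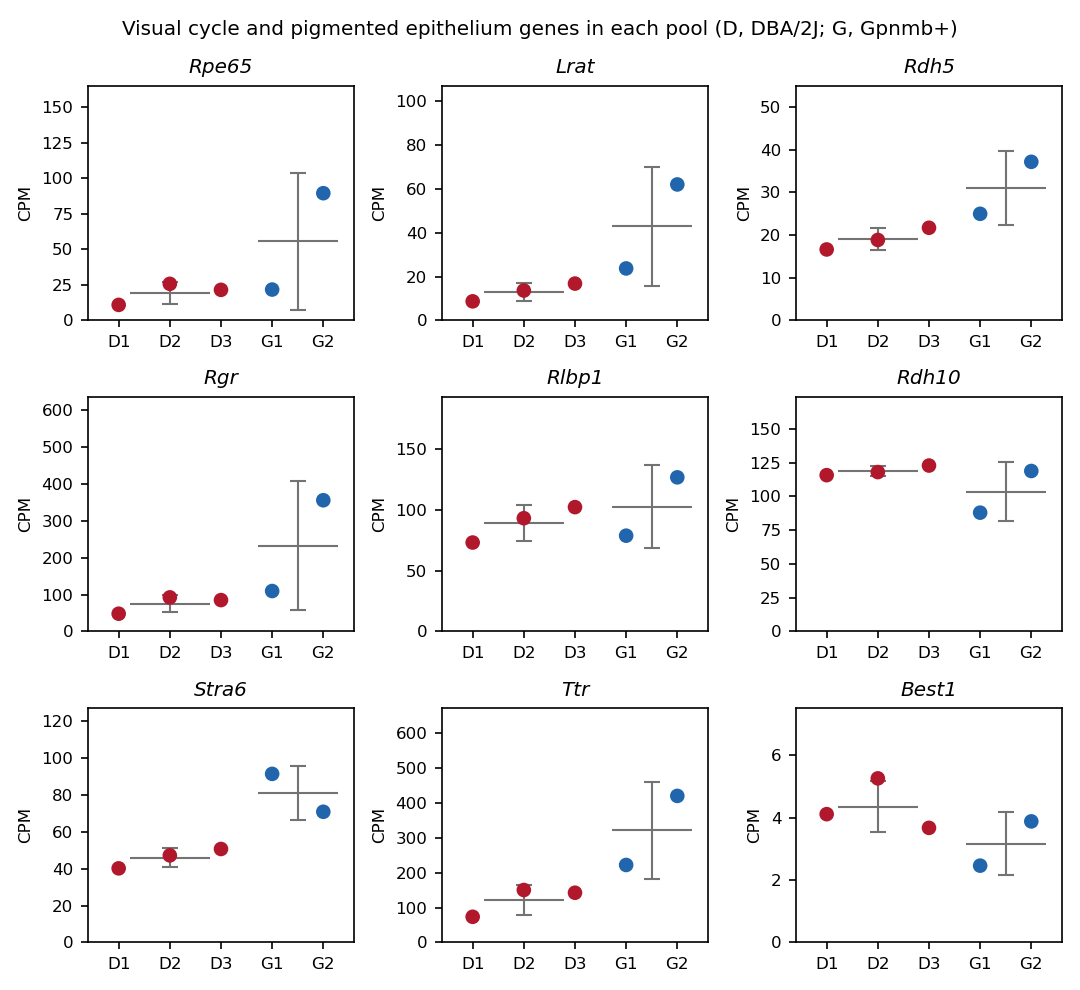
CPM (vertical axes, linear, from 0) of the 9 genes in DBA/2J pools 1 to 3 (D1 to D3, red) and Gpnmb+ pools 1 and 2 (G1 and G2, blue), with the mean and SD of each genotype in grey. Lrat, Rdh5, Rgr, Stra6 and Ttr are lower in every red pool than in both blue pools, and G2 is the highest pool for Rpe65, Lrat, Rdh5, Rgr, Rlbp1 and Ttr.

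Lrat, which esterifies retinol and so makes the substrate of the isomerase, lies at chr3:82799886-82811288 on the minus strand of GRCm39. DBA/2J pools 1 to 3 held 387, 586 and 750 counts of it, Gpnmb+ pools 1 and 2 held 1204 and 3036. As CPM these were 8.70, 13.7 and 16.8 against 23.7 and 62.1. The genotypes did not overlap, and Gpnmb+ pool 2 was 2.62 times Gpnmb+ pool 1. Its log2 fold change of -1.72 (standard error 0.44, 95% interval -2.78 to -0.65) had an adjusted p-value of 0.147 in edgeR. Without Gpnmb+ pool 2 the log2 fold change was -0.86.

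Rpe65, the isomerohydrolase that turns retinyl ester into 11-cis-retinol and the gene most closely tied to retinal pigment epithelium (chr3:159304802-159330958, plus strand), varied most between pools. Gpnmb+ pool 1, at 21.7 CPM, lay between DBA/2J pool 3 at 21.5 CPM and DBA/2J pool 2 at 25.7 CPM, whereas Gpnmb+ pool 2 reached 89.4 CPM. DBA/2J pool 1 was the lowest of all, at 10.9 CPM. The fitted difference was -1.52 on the log2 scale (standard error 0.61, edgeR adjusted p = 0.302) and shrank to -0.16 without Gpnmb+ pool 2. The genotype difference of Rpe65 therefore rested on that pool.

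Rgr, an opsin of pigment epithelium and Müller glia that supports regeneration of the retinoid in light (chr14:36756866-36770921, minus strand), had 48.0, 92.3 and 85.0 CPM in DBA/2J and 109.5 and 355.8 CPM in Gpnmb+. Both Gpnmb+ pools were above all DBA/2J pools, the first of them by 1.19-fold over the highest DBA/2J pool. The fitted difference was -1.63 on the log2 scale (standard error 0.50, edgeR adjusted p = 0.206), and -0.54 without Gpnmb+ pool 2.

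Rdh5, the dehydrogenase that oxidises 11-cis-retinol (chr10:128749385-128759341, minus strand), had 739, 809 and 968 counts in DBA/2J, against 1267 and 1817 in Gpnmb+. The genotypes did not overlap, and the fitted difference was -0.70 on the log2 scale (standard error 0.20, edgeR adjusted p = 0.175). In the annotation used here, Bloc1s1 overlaps 70.7% of the exon bases of Rdh5 on the same strand, so the count of Rdh5 is uncertain. Without Gpnmb+ pool 2 the value was -0.39.

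Rlbp1 encodes the retinaldehyde-binding protein of pigment epithelium and Müller glia (chr7:79024602-79038176, minus strand). It had 73.1, 93.1 and 102.2 CPM in DBA/2J and 78.7 and 126.7 CPM in Gpnmb+, and the genotypes overlapped. The log2 fold change was -0.20 (95% interval -0.76 to 0.36) and was 0.19 without Gpnmb+ pool 2. Rdh10, a retinol dehydrogenase also known for making retinal for retinoic acid outside the retina (chr1:16175555-16203958, plus strand), differed least between the DBA/2J pools. It had 5147, 5067 and 5482 counts in DBA/2J, against 4464 and 5814 in Gpnmb+, with a log2 fold change of 0.20 (95% interval -0.13 to 0.53, adjusted p = 0.529 in edgeR). Without Gpnmb+ pool 2 it was 0.44 (edgeR adjusted p = 0.260).

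Stra6, the membrane receptor that takes up retinol from its binding protein (chr9:57970967-58063543, plus strand), showed another order of the pools. It had 40.1, 47.2 and 50.6 CPM in DBA/2J, 91.3 CPM in Gpnmb+ pool 1 and 70.8 CPM in Gpnmb+ pool 2. Among the 9 genes it alone was higher in Gpnmb+ pool 1 than in Gpnmb+ pool 2, and Gpnmb+ pool 1 was 1.80 times the highest DBA/2J pool. Its log2 fold change of -0.82 (standard error 0.15) had the smallest adjusted p-value of the group, 0.0782 in edgeR. Leaving out Gpnmb+ pool 2 gave -0.99, and leaving out pool 1 gave -0.62. DESeq2's Wald test gave it an adjusted p-value of 0.00025, and over 15 alternatives the adjusted p-value ran from 0.00025 to 0.186.

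Ttr, transthyretin, carries retinol-binding protein and thyroid hormone and is made by pigment epithelium and ciliary epithelium as well as by liver and choroid plexus, and lies on chromosome 18. It was the most abundant of the 9 genes per length of transcript, and its reads came to 3270, 6457 and 6359 in DBA/2J, against 11277 and 20567 in Gpnmb+. As CPM the lowest Gpnmb+ pool, at 222.3, was 1.48 times the highest DBA/2J pool, at 150.4. The fitted difference was -1.40 on the log2 scale (standard error 0.38, edgeR adjusted p = 0.162), and -0.86 without Gpnmb+ pool 2.

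Best1, bestrophin 1 (chr19:9962538-9978997, minus strand), was the sparsest of the 9 genes, holding 183, 226 and 164 counts in DBA/2J, against 125 and 190 in Gpnmb+. The pools overlapped, and Gpnmb+ pool 1 was the lowest at 2.46 CPM. The log2 fold change was 0.46 (95% interval -0.22 to 1.13, adjusted p = 0.475 in edgeR), and 0.82 without Gpnmb+ pool 2 (edgeR adjusted p = 0.403). Unlike Rpe65, Best1 was not highest in Gpnmb+ pool 2.

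**Figure D2:**
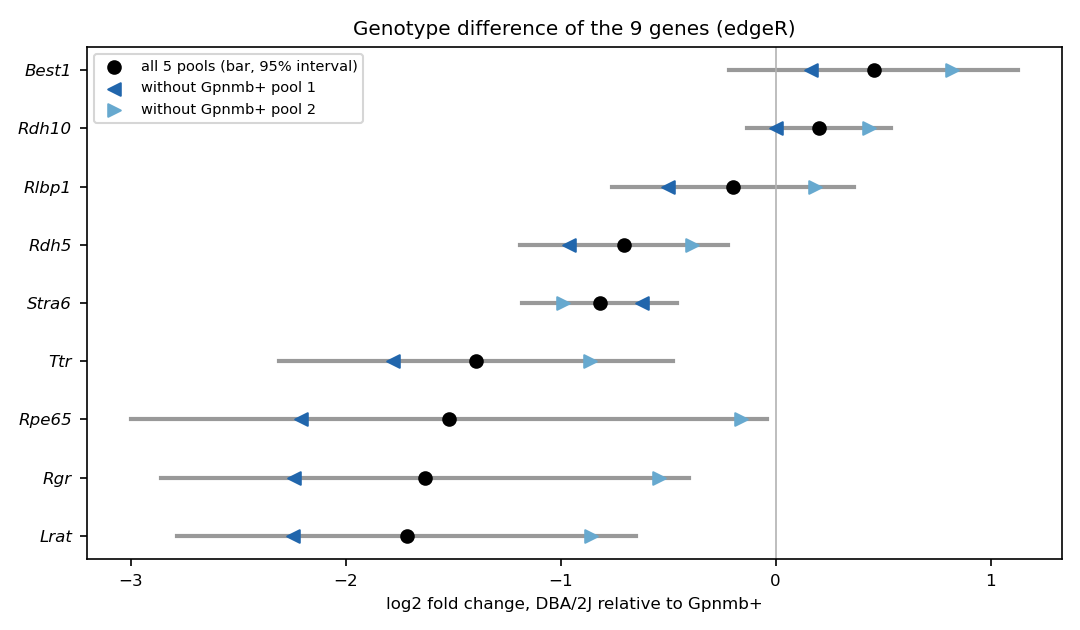
Log2 fold change of DBA/2J relative to Gpnmb+ (horizontal axis) for each of the 9 genes from edgeR, with all 5 pools (black, bar showing the 95% interval) and without Gpnmb+ pool 1 or pool 2 (triangles). The estimate of Rpe65 moves from -2.21 without Gpnmb+ pool 1 to -0.16 without Gpnmb+ pool 2, whereas that of Stra6 lies between -0.62 and -0.99.

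The sequences before the starts of Rpe65, Rgr and Best1 are shown because the first 2 were highest in Gpnmb+ pool 2 and lowest in DBA/2J pool 1 and Best1 was neither, while all 3 hold the same short letter pattern. RefSeq promoters (from the GRCm38.p6 table, with positions from an exact match to GRCm39) were given for 7 of the 9 genes. The 250 bases before each start were searched on both strands for TAATCC, the letters of the homeodomain site bound by OTX2 and CRX, and for the E-box letters CACGTG and CATGTG, the kind bound by MITF. TAATCC or its reverse complement was found for 3 of the 7 genes and in 6.25% of all promoter windows. It ended nearest the start in Rpe65, beginning 42 bases upstream on the opposite strand, and began 167 bases upstream in Rgr and 227 in Best1. CATGTG was found for Rpe65 and Rlbp1 and in 12.3% of all windows, and CACGTG for 0 of the 7 and in 6.02%. The capitals mark TAATCC or, on the opposite strand, GGATTA.
Rpe65 (GRCm39, chr3:159304568-159304817, plus strand): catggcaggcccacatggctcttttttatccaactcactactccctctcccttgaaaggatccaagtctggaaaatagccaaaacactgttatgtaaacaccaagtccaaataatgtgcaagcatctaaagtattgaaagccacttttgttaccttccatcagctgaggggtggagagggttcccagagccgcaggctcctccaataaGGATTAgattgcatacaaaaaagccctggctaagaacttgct
Rgr (GRCm39, chr14:36770972-36771221, minus strand): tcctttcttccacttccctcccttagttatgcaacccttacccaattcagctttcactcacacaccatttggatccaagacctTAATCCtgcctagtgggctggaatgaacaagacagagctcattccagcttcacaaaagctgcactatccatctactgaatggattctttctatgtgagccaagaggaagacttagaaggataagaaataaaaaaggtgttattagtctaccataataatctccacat
Best1 (GRCm39, chr19:9978998-9979247, minus strand): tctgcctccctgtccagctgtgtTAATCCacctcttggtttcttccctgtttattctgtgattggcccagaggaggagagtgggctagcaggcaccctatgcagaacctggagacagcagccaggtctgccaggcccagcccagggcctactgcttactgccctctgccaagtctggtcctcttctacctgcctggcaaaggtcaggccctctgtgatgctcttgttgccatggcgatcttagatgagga
The RefSeq start of Rpe65 lies a few bases inside the GENCODE gene. A match describes these letters only. The RNA of Best1, whose window holds them, was highest in DBA/2J pool 2.

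Photoreceptor RNA was compared with the 9 genes pool by pool. All 16 rod genes were lowest in Gpnmb+ pool 1 and highest in Gpnmb+ pool 2, and within DBA/2J all 16 were highest in pool 2. The ratio of Gpnmb+ pool 2 to pool 1 ran from 3.59-fold to 6.81-fold over the rod genes with a median of 5.43-fold. The 10 cone genes spread more widely, from 0.932-fold to 7.95-fold with a median of 2.69-fold, and 5 of them were lower in Gpnmb+ pool 1 than in all DBA/2J pools. The 9 genes ranged from 4.12-fold for Rpe65, 3.25-fold for Rgr, 2.62-fold for Lrat and 1.89-fold for Ttr down to 1.35-fold for Rdh10 and 0.775-fold for Stra6, all below the median of the rod genes. Over all tested genes the median log2 ratio between these 2 pools was 0.00061.

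**Figure D3:**
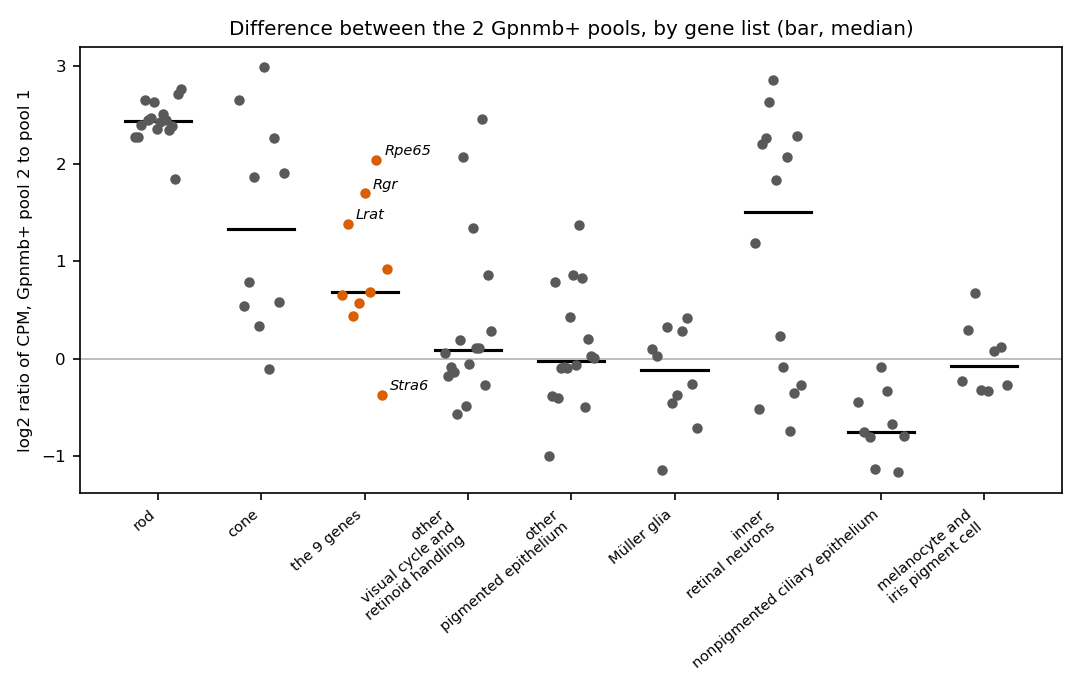
Log2 ratio of CPM in Gpnmb+ pool 2 to pool 1 (vertical axis) for every tested gene of 9 lists, 1 point per gene, with the list median as a bar and the 9 visual cycle and pigmented epithelium genes in orange. The rod genes lie between 1.85 and 2.77, the cone genes between -0.10 and 2.99, the 9 genes spread from -0.37 to 2.04, and nonpigmented ciliary epithelium genes all lie below 0.

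Within DBA/2J the order of the pools followed that of photoreceptor RNA only in part. Pool 2, the DBA/2J pool with the most photoreceptor RNA at 1109 CPM, was also highest for 4 of the 9 genes (Rpe65, Ttr, Rgr and Best1). Lrat, Rlbp1, Rdh5, Rdh10 and Stra6 were highest in pool 3. Pools 1 and 3 held about the same photoreceptor RNA, 792 and 760 CPM, but Rpe65 was 1.97-fold, Lrat 1.93-fold, Ttr 1.94-fold and Rgr 1.77-fold higher in pool 3 than in pool 1. DBA/2J pool 1 was the lowest DBA/2J pool for 8 of the 9 genes, all but Best1. Rdh10 differed by 1.06-fold between these pools.

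In Gpnmb+ pool 1, the pool with the least photoreceptor RNA, Lrat, Ttr, Rgr, Stra6 and Rdh5 were above all DBA/2J pools, by 1.41-fold, 1.48-fold, 1.19-fold, 1.80-fold and 1.15-fold over the highest of them, while Best1 and Rdh10 were below all DBA/2J pools. The part of photoreceptor RNA in the genotype differences cannot be told from this single pool. Relative to the photoreceptor sum, Rpe65 was 1.38%, 2.32% and 2.83% in DBA/2J pools 1 to 3, 4.58% in Gpnmb+ pool 1 and 3.59% in Gpnmb+ pool 2, and the genotypes did not overlap on this ratio. Lrat, at 1.10% to 2.21% in DBA/2J against 5.00% and 2.49% in Gpnmb+ pools 1 and 2, did not overlap either. The same held for Rgr, at 6.06% to 11.2% against 23.1% and 14.3%. Ttr was 9.29%, 13.6% and 18.8% of the photoreceptor sum in DBA/2J, 46.9% in Gpnmb+ pool 1 and 16.9% in Gpnmb+ pool 2, which overlapped. Stra6 was 4.25% to 6.66% in DBA/2J, 19.3% in Gpnmb+ pool 1 and 2.84% in Gpnmb+ pool 2. For Rlbp1, Best1, Rdh5 and Rdh10 too, Gpnmb+ pool 2 was below all DBA/2J pools on this ratio. Gpnmb+ pool 1 had the smallest photoreceptor sum, which raises the ratio of every gene there, and was highest for all genes but Best1. This included Rlbp1, at 16.6% against 8.40% to 13.4% in DBA/2J, and Rdh10, at 18.6% against 10.6% to 16.2%. The share of all tested genes without overlap on this ratio was not computed, so the separations cannot be read as particular to these genes. The mean log2 CPM of the 9 genes minus that of the 26 photoreceptor genes was 1.91, 2.05 and 2.43 in DBA/2J and 2.97 and 1.87 in Gpnmb+. The genotype difference of this measure was -0.29, and -0.84 without Gpnmb+ pool 2 but 0.26 without Gpnmb+ pool 1.

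**Figure D4:**
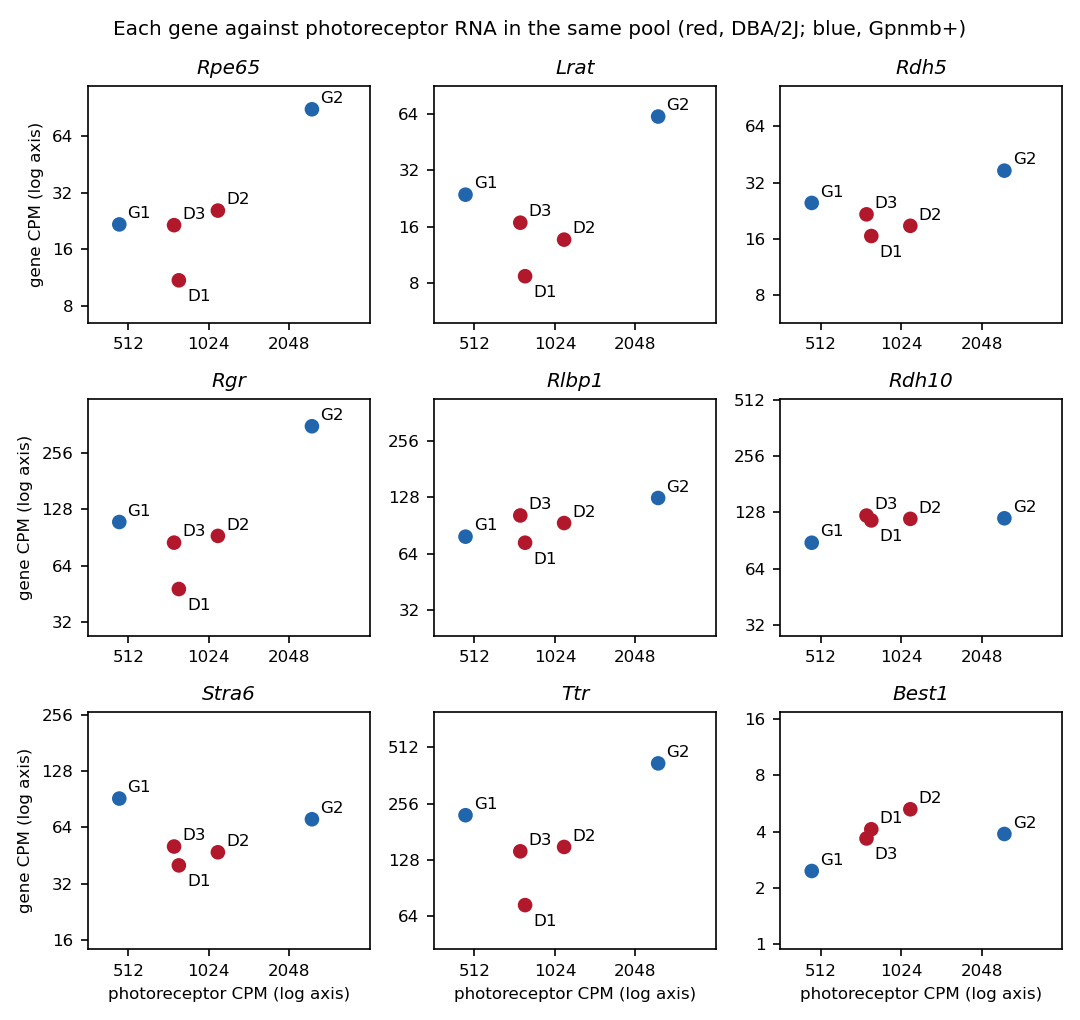
CPM of each of the 9 genes (vertical axes, log scale) against the summed CPM of 26 photoreceptor genes in the same pool (horizontal axes, log scale), with DBA/2J pools (D1 to D3) in red and Gpnmb+ pools (G1 and G2) in blue. G1 and G2 lie at the ends of the photoreceptor range, at 474 and 2493 CPM, and G1 lies above all red pools for Lrat, Rdh5, Rgr, Stra6 and Ttr.

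With the log2 photoreceptor sum of each pool as a covariate in the edgeR fit, an alternative chosen after the values were seen, the log2 fold changes were -0.94 for Rpe65, -1.38 for Lrat, -1.18 for Rgr, -1.21 for Ttr, -0.61 for Rdh5 and -0.85 for Stra6. The estimates of Rpe65 and Rgr moved most towards 0, and that of Stra6 did not. Of the 9 genes 0 were called in that fit, and the smallest adjusted p-value was 0.054, for Stra6. The photoreceptor genes themselves had a median log2 fold change of -0.78, and of 0.84 without Gpnmb+ pool 2, so their direction depended on that pool. edgeR called 0 of the 26, against 1 at an unadjusted p-value with the same fold change and 1 by DESeq2's Wald test.

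Other genes of the visual cycle and of retinoid handling were taken from a list of 16, of which edgeR called 0 in either direction. At an unadjusted p-value 2 were lower in DBA/2J and 0 higher, and the list's median log2 fold change was -0.06, which turned positive in limma-voom (0.03) and without Gpnmb+ pool 2 (0.14). Rbp4, the plasma retinol-binding protein that Stra6 and Ttr bind, was named after its values were seen. It had 90, 79 and 119 counts in DBA/2J, against 338 and 233 in Gpnmb+. This gave -1.39 as log2 fold change (edgeR adjusted p = 0.0768), and -1.61 without Gpnmb+ pool 2. Like Stra6 it was highest in Gpnmb+ pool 1. Rbp3, which shuttles retinoid between the photoreceptors and the epithelium and is made by photoreceptors, followed the rod genes at 3809, 4172 and 3281 counts in DBA/2J, against 2144 and 8667 in Gpnmb+, and its log2 fold change of -0.36 became 1.02 without Gpnmb+ pool 2.

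Abca4, which clears retinal from photoreceptor outer segments and is also known from pigment epithelium, did not follow the rod genes. It had 12389, 13319 and 15553 counts in DBA/2J, against 12152 and 12242 in Gpnmb+, and Gpnmb+ pool 2 stood 0.06 above pool 1 on the log2 scale. In CPM all DBA/2J pools of Abca4 were above the Gpnmb+ pools, with a log2 fold change of 0.35 (edgeR adjusted p = 0.238). Dhrs3, which reduces retinal, separated the same way, with a log2 fold change of 0.27 (edgeR adjusted p = 0.222). Degs1, a desaturase also proposed as a retinol isomerase, overlapped, with 0.08. The log2 ratio of Gpnmb+ pool 2 to pool 1 had a median of 0.09 over the 16 genes, against 0.69 over the 9 genes.

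Of 16 other genes of pigmented epithelium, edgeR called 0, and at an unadjusted p-value 5 were lower and 1 was higher in DBA/2J. One of the 5, Rrh, stands in both lists and is counted in each. The list's median log2 fold change was -0.11. The lower ones included Slc16a8, a lactate transporter of retinal pigment epithelium, at 185, 332 and 294 counts in DBA/2J pools, against 528 and 902 in Gpnmb+, and Ermn, with 287, 398 and 437 against 689 and 1145. Their log2 fold changes were -1.23 and -1.12, and -0.76 and -0.67 without Gpnmb+ pool 2. Both separated the genotypes and were named after their values were seen, as were Rrh, the peropsin of pigment epithelium (log2 fold change -0.82), and Cldn19, a claudin of its tight junctions. Cldn19 was on the other side, at 1918, 2232 and 2566 counts in DBA/2J pools, against 1100 and 532 in Gpnmb+ (log2 fold change 1.64, adjusted p = 0.0820 in edgeR, and 1.23 without Gpnmb+ pool 2). Otx2, a transcription factor of pigment epithelium, had 49.9, 60.5 and 81.3 CPM in DBA/2J and 61.2 and 82.2 CPM in Gpnmb+, which overlapped. Of the pigment genes, Tyr, tyrosinase, had all DBA/2J pools above the Gpnmb+ pools, with a log2 fold change of 0.19, Oca2, a melanosome membrane protein, had them below, with -0.27, and Mitf overlapped, with 0.04. Otx2, Oca2 and Mitf were also named after their values were seen. By mean CPM over the pools the list was led by Gas6, a ligand of phagocytosis receptors, with a log2 fold change of 0.09, Serpinf1, pigment epithelium-derived factor (-0.20), Tyr, Trpm3 (0.54) and Slc26a7, an anion transporter (-0.64), and edgeR called 0 of these 5. Slc26a7 had 88.2, 101.9 and 114.0 CPM in DBA/2J and 185.0 and 131.3 CPM in Gpnmb+, without overlap, and was highest in Gpnmb+ pool 1.

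Markers of neighbouring cells were read beside these values. Of 9 tested genes of nonpigmented ciliary epithelium, 8 had all DBA/2J pools above the Gpnmb+ pools, Aqp1 had them below, and 3 were called higher by edgeR (Six6, Col9a1 and Col9a2), with a median log2 fold change of 1.65, and 1.21 without Gpnmb+ pool 2. Without DBA/2J pool 1, 2 or 3 or Gpnmb+ pool 2, 0 of them were called, and 6 without Gpnmb+ pool 1. Their summed level was 1408 to 1634 CPM in DBA/2J, 1011 CPM in Gpnmb+ pool 1 and 672 CPM in Gpnmb+ pool 2, so this list ran opposite to Lrat, Ttr and Rgr in genotype and between the Gpnmb+ pools. The 10 genes listed for Müller glia, which share Rlbp1 and Rgr with pigment epithelium, had positive log2 fold changes, from 0.0006 to 1.72. Of these genes 6 were without overlap and 2 were called higher (Slc1a3 and Dkk3). They summed to 9157 to 9659 CPM in DBA/2J and to 6833 and 5798 CPM in Gpnmb+ pools 1 and 2. Between these Gpnmb+ pools the rod genes ran the other way from this sum, but 5 of the 10 Müller glia genes were higher in pool 2, as the rod genes were. The 14 inner retinal neuron genes were mixed in direction, and their median log2 fold change was near 0 (-0.0039, 0.0020 with DESeq2's size factors and 1.23 without Gpnmb+ pool 2). The 8 genes of melanocytes and iris pigment cells summed to 3131 to 4101 CPM in DBA/2J and 4017 and 3463 CPM in Gpnmb+ pools 1 and 2, with Slc45a2 called lower. Myoc, a defining marker of trabecular meshwork, stood at 159.8 to 325.9 CPM in DBA/2J and 434.9 and 534.6 CPM in Gpnmb+, and Cyp1b1 of the same list was called higher. Leaving out any pool gave 0 calls in the trabecular meshwork list. Without Gpnmb+ pool 2 or DBA/2J pool 1 or 2, 0 genes were called in the Müller glia and melanocyte lists. Corneal epithelium genes summed to 9761 to 14735 CPM and lens genes to 16.3 to 23.7 CPM over the 5 pools, with 0 called by edgeR in either list, against 1 and 1 at an unadjusted p-value. The corneal one was Krt12, the keratin of differentiated corneal epithelium, at 254.1, 115.8 and 9.44 CPM in DBA/2J and 1702 and 554.2 CPM in Gpnmb+, without overlap (log2 fold change -3.16, edgeR adjusted p = 0.270). Aqp1, Myoc and Krt12 were named after their values were seen. The part of these cell types in the differences of the 9 genes was not tested.

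Per kilobase of the canonical transcript, the level of the 9 genes in DBA/2J was highest for Ttr, at 92.8 ± 32.1 CPM per kilobase (SD, n = 3), followed by Rlbp1 at 36.0 ± 5.99 and Rdh10 at 29.5 ± 0.903. The pools of Rlbp1 and Rdh10 overlapped. Rgr at 17.7 ± 5.60, Rdh5 at 11.9 ± 1.58, Rpe65 at 10.3 ± 4.07 and Stra6 at 8.61 ± 1.00 came next, each overlapping its neighbour in this order, while all pools of Rdh10 lay above those of Rgr and all of Stra6 above those of Lrat. Lrat at 2.44 ± 0.763 and Best1 at 2.09 ± 0.394 CPM per kilobase were lowest, and their pools overlapped. In Gpnmb+ Ttr was again highest, at 244.2 ± 107 CPM per kilobase (SD, n = 2), and Rgr stood second at 54.9 ± 41.1, a spread set by Gpnmb+ pool 2. Rpe65, behind Rlbp1, stood at 29.7 ± 25.6, and Best1 was lowest at 1.53 ± 0.483. The order differed in Gpnmb+ pool 1, where Rgr, at 25.8, was below Rlbp1 at 31.7. In that pool Rpe65, at 11.6, was also below Rdh10 at 21.8, Stra6 at 17.1 and Rdh5 at 15.5. Because its exons are shared with Bloc1s1, the place of Rdh5 in this order is uncertain.

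The genes most like Rpe65 over the 5 pools were found among 15169 other genes with a mean of at least 1 CPM, by the root mean square difference of log2 CPM after each gene was centred on its own mean. They were Acoxl (0.23), Sftpd (0.26), Mir124-2hg (0.29), Slc24a1 (0.31) and Cyp2b19 (0.34). Slc24a1, the sodium, potassium and calcium exchanger of rods, had 808, 1232 and 1065 counts in DBA/2J, against 1004 and 4162 in Gpnmb+. Sftpd, surfactant protein D, had 388, 939 and 727 against 934 and 2295. The genes most like Rdh10 were closer to it, at 0.03 for Nat14, 0.04 for Dennd10, Pced1b and Rhoc, and 0.05 for Glrx5. With 5 pools and this many candidates, such likeness is a description only.

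Leaving out Gpnmb+ pool 1 gave 7 genes with every DBA/2J pool below the remaining Gpnmb+ pool, and leaving out any other pool gave 5 or 6. Separation is easier to reach with fewer pools. The share of all tested genes was not computed for these sets, so the counts cannot be read as stronger or weaker separation. With a single Gpnmb+ pool left, that pool is assumed to vary like the DBA/2J pools. No strand setting is given for the counts, so reads of Lrat and of the antisense gene Rbm46os, which covers 8.36% of its exon bases, cannot be told apart.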

How the data were processed

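Total RNA of iridocorneal tissue from 5 pools was sequenced after mRNA enrichment. Per the labels and methods, the authors used fastp for trimming and STAR for alignment to GRCm39. The deposited values are raw counts, each summing a gene's uniquely aligned reads, without normalization. All 5 columns were used, and groups came from the sample titles. Names, lengths and positions came from GENCODE M39 (GRCm39), which named 56323 of the 56941 identifiers. Chil1 was matched under its current symbol.

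Of all genes, those reaching 10 counts in any pool entered the test in R 4.3.3 with edgeR 4.0.16 (TMM, quasi-likelihood test, no covariate). A call meant a p-value, adjusted by Benjamini-Hochberg, no higher than 0.05 with a minimum fold of 1.5, and "unadjusted" keeps the fold minimum. Standard errors are the log2 fold change divided by the root of the F statistic, and log2 CPM used a prior count of 2. limma 3.58.1, DESeq2 1.42.0 and ashr 2.2.63 gave alternatives. A two-sided exact permutation test of 3 pools against 2 cannot go below p = 0.2. Counts cover counting error only, not variation between mice in a pool. Tested on simulated data for this comparison, with 200 of 19713 genes changed by 2 on the log2 scale, edgeR recovered 100% with 8 false calls. The largest fitted change among the visual cycle and pigmented epithelium genes was smaller, at -1.72 for Lrat. Recovery of changes of that size or smaller was not simulated. A gene of this group that was not called therefore cannot be read as unchanged. Figures used Python 3.11.15 and matplotlib 3.10.9.

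The members and lists were chosen with earlier results of these data known. Named were all 9 members, called genes of each list or its most abundant ones, and the 5 genes most like Rpe65 and Rdh10. Other names are said to be chosen after their values were seen. Some genes of the lists are not reported here by name.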

Additional observations from a re-analysis of the deposited data

How the results depend on the processing

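The 9 genes' calls depended on the test. edgeR called 0 of them, DESeq2's Wald test 4, ashr-moderated fold changes 3, edgeR without the count minimum 1 and with unadjusted p-values 6. Of the photoreceptor genes these called 0, 1, 1, 1 and 1, and of all genes 157, 927, 733, 360 and 1710. The median log2 fold change of the 9 genes was -0.33 with ashr moderation, against -0.82. With the photoreceptor covariate, added after seeing the data, 281 genes were called. Leaving out each pool gave 1 to 217 called genes, 0 to 0 of the 9, 0 to 5 photoreceptor genes, a median log2 fold change of -0.96 to -0.39 for the 9 genes and of -1.53 to 0.84 for the photoreceptor genes, and a difference of the 9 genes from the photoreceptor genes of -0.84 to 0.26. The count without DBA/2J pool 1, 2 or 3 was 6, 1 and 17, and without Gpnmb+ pool 2 it was 2.

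Pool numbers do not pair samples in the labels, and deviations of same-numbered pools correlated at 0.28 and 0.25 over genes for 2 pairs. With the replicate block edgeR called 220 genes, 3 of the 9 (Lrat, Ttr and Rgr) and 0 photoreceptor genes, with medians of -0.89 and -0.27. The members' signs stayed the same under all 15 alternatives, apart from Rlbp1, which was positive in 1. The alternatives with unadjusted p-values and without a fold minimum reuse the main fit, so signs could not change there. With 5 pools, and Best1 at 226 counts or fewer in each, differences of the size of its interval could not be resolved.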
